A study of Mus musculus with 6 samples.

Results

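The clustered histone genes are the protein-coding genes whose GENCODE M21 symbols begin with Hist1h, Hist2h, Hist3h or Hist4h, chosen by symbol and not by any measured value. The annotation holds 67 such genes, and 51 of them are among the 24938 genes analysed here. The 51 comprise 5 genes of the linker histone H1, 10 of H2A, 14 of H2B, 10 of H3 and 12 of H4. The 16 other genes (1 of H1, 8 of H2A, 4 of H2B, 2 of H3 and 1 of H4) were not analysed here. In the mm10 assembly 44 of the 51 lie on chromosome 13, 19 of them between 21715763 and 22043676 and 25 between 23531050 and 23764406. A further 4 lie on chromosome 3 between 96220361 and 96263311, 2 on chromosome 11 between 58948920 and 58956830, and Hist4h4 alone on chromosome 6 from 136801553 to 136804415.

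RNA sequencing was done in NIH3T3, an established mouse embryonic fibroblast line, in 3 control libraries whose genotype is given as wild type and 3 libraries of cells overexpressing F-CircAE. F-CircAE is a circular RNA, a transcript with joined ends, related to AML1-ETO, a fusion protein of human acute myeloid leukaemia that joins RUNX1 and RUNX1T1. The sample titles mark the controls with V and the overexpression libraries with C, letters that the labels do not explain, so whether the controls carry an empty vector is not known. They give neither the time of overexpression nor the cell clone. The labels do not say that the libraries of a group are separate cultures; their spread, and with it each p-value, may be technical.

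The core histones, H2A, H2B, H3 and H4, wrap DNA into nucleosomes, and H1 binds the DNA that links them. The clustered genes supply new histones while DNA is copied, so their mRNA rises in S phase and falls after it. Most of these mRNAs end in a short stem-loop in place of a poly(A) tail; the stem-loop binding protein Slbp and the U7 ribonucleoprotein cut the transcript just after it. Some clustered genes also make polyadenylated forms, known from differentiating and non-dividing cells. The series' design text speaks of mRNA and the labels name a library kit and total RNA, but neither says whether poly(A) RNA was selected or ribosomal RNA removed, a step that decides how much of the tailless mRNA is sampled.

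The stem-loop was read from the annotated transcripts (GENCODE M21) because it marks which members have the tailless end in their gene model. The search was for 16 bases that begin with GG, with 6 paired bases on either side of a 4-base loop that has T at its bases 1 and 3, every pair a Watson-Crick pair. It matched 35 of the 51 members, and 16 had no match, which says only that these letters are not in the annotated transcript. Capitals mark the stem and lower case the loop, in DNA letters.
Hist1h1c and 16 other genes of H1, H2A, H2B and H3: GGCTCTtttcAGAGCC
Hist1h4d, Hist1h4h and 5 other H4 genes: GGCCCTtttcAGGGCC
Hist1h3c, Hist1h3e, Hist1h3f, Hist1h2bb and Hist1h2bk: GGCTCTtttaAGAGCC
Hist1h4i and Hist2h4: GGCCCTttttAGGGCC
Every H4 match but 1 had the stem GGCCCT, Hist1h4j having the stem GGTCCT, whereas all matches in the other 4 classes had the stem GGCTCT. In 20 members the annotated transcript ran more than 100 bases past the stem-loop, in Hist1h1c by 840 bases and in Hist1h4i by 330, and in 15 it ended within 100 bases of it. Hist1h2bc, the most abundant H2B gene, has a gene model of 2 exon blocks with no match.

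Promoters were compared because H2A and H2B genes in these clusters often face each other across a shared one, while H1 and H4 genes carry their own elements. The RefSeq table (GRCm38.p6) held a promoter for 46 of the 51 members, each from upstream of the start to shortly after it. CCAAT was found on either strand in 5 of 5 H1, 10 of 10 H2A, 12 of 12 H2B, 8 of 8 H3 and 3 of 11 H4 genes, beside 37.4% of all 32851 promoters. AAACACA, known as the H1 box, was in 4 of 5 H1 genes and in 0 genes of the other classes, beside 7.18% of all promoters. The octamer ATTTGCAT, bound by Oct-1 (Pou2f1), was in 5 of 10 H2A and 4 of 12 H2B genes and in 0 genes of the other classes, beside 1.74% of all promoters. TATAAA was in 30 of 46 members, beside 13.6%. TTTCGCGC or TTTGGCGC, which E2F factors bind, was in 8 of 46, beside 0.813%. These were 4 of 10 H2A and 4 of 12 H2B genes, with 0 genes of the other classes. Promoters of head-to-head partners can overlap, as in Hist1h2ad and Hist1h2bf, so a match in the overlap counts for both genes. Each motif was counted on its own, on both strands, whether or not it overlapped another, and a match is a description of letters and not a site. The upstream stretches of 3 members on which the results below turn are printed, with matches to the CCAAT, TATA, octamer and H1 box letters, on either strand, in capitals.
Hist1h1c, chr13:23738557-23738806, plus strand: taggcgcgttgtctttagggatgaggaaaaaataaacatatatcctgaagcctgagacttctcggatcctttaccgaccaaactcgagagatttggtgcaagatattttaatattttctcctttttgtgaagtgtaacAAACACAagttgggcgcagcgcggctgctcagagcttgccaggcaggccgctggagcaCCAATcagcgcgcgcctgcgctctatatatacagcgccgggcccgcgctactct
Between Hist1h2bc and Hist1h2ac, chr13:23683960-23684198, minus strand, towards Hist1h2ac: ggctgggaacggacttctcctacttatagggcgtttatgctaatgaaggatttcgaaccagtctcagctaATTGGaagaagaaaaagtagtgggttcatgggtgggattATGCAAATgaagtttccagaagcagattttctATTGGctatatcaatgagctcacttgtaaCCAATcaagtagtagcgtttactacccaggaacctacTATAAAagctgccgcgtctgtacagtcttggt
Hist1h4i, chr13:22041363-22041612, minus strand: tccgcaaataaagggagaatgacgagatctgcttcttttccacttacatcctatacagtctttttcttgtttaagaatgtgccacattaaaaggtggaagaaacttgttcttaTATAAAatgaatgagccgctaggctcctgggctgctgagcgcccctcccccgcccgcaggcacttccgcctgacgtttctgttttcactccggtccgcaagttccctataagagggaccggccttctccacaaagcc
The H1 box of Hist1h1c begins 112 bases and its CCAAT 54 bases before the end of the stretch. The stretch between Hist1h2bc and Hist1h2ac holds 3 CCAAT elements and 1 octamer, and that of Hist1h4i holds TATAAA and none of the other 3.

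Values are FPKM, reads scaled by the authors to gene length and library size, so levels of genes can be compared per length. The reads behind them, recovered from the steps of the FPKM values, ran from 16969915 to 21843880 per library. Over all 6 libraries the 51 members held 8553 reads, with a median of 65 reads per member and a lowest of 3. For 18 of the 51 the gene length had to be searched, and their reads are the fewest that fit the values. Markers of fibroblasts were present, 8 of 9 listed genes being above 1 FPKM in every library, with sums of 1940 to 2460 FPKM in control and 1740 to 2140 with overexpression. The defining leukocyte gene Ptprc did not exceed 0.0117 FPKM. The 4 listed germ cell genes summed to 0.555 to 1.07 FPKM, Prm1 being the highest at 0.3 to 0.595, and the 3 listed endothelial markers to at most 1.14 FPKM. The 4 listed leukocyte genes summed to 4.5 to 6.42 FPKM, of which Cd68 held 4.32 to 6.34. The 4 listed epithelial genes summed to 5.93 to 8.79 FPKM, with Cdh1 at 2.19 to 2.82 and Krt14 at 2.37 to 6.06. Control replicate 3 stood apart from the other controls in the histone genes, and the estimates that it moves most are given with and without it.

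Reads of clustered histone genes were sparse in all 6 libraries. In bulk RNA, fewer cells in S phase and less histone mRNA per cell cannot be told apart. Nor can either be told from weak sampling of tailless mRNA, because the RNA selection is not given. The summed FPKM of the 51 members was 72.2, 79.5 and 150 in the controls and 57.4, 66.8 and 82.1 in the overexpression libraries (replicates in the order 1, 2, 3 here and throughout), which is 0.0152% to 0.0405% of all FPKM. Control replicate 3 held the highest sum, 1.98 times the mean of control replicates 1 and 2, and overexpression replicate 3 lay above both of those, so the groups overlapped. Only 3 members had a mean above 5 FPKM over the 6 libraries, namely Hist1h1c, Hist1h2bc and Hist1h4i, and 30 had a mean below 1 FPKM. Replacement histone genes, most of which are expressed outside S phase from polyadenylated mRNAs, were summed by class for comparison. The part of RNA selection in the ratios that follow was not tested. H1f0, the replacement linker histone, stood at 368 to 470 FPKM, 11.5 to 40.8 times the summed clustered H1 genes of the same library. H3f3a and H3f3b, which encode H3.3, together stood 24.1 to 45 times above the summed clustered H3 genes. The 6 H2A variant genes H2afz, H2afv, H2afx, H2afj, H2afy and H2afy2 together stood 90.9 to 442 times above the summed clustered H2A genes. Among them H2afx, known to make a stem-loop form as well, was at 11.7 to 16.3 FPKM, below Hist1h1c in 5 of the 6 libraries.

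**Figure D1:**
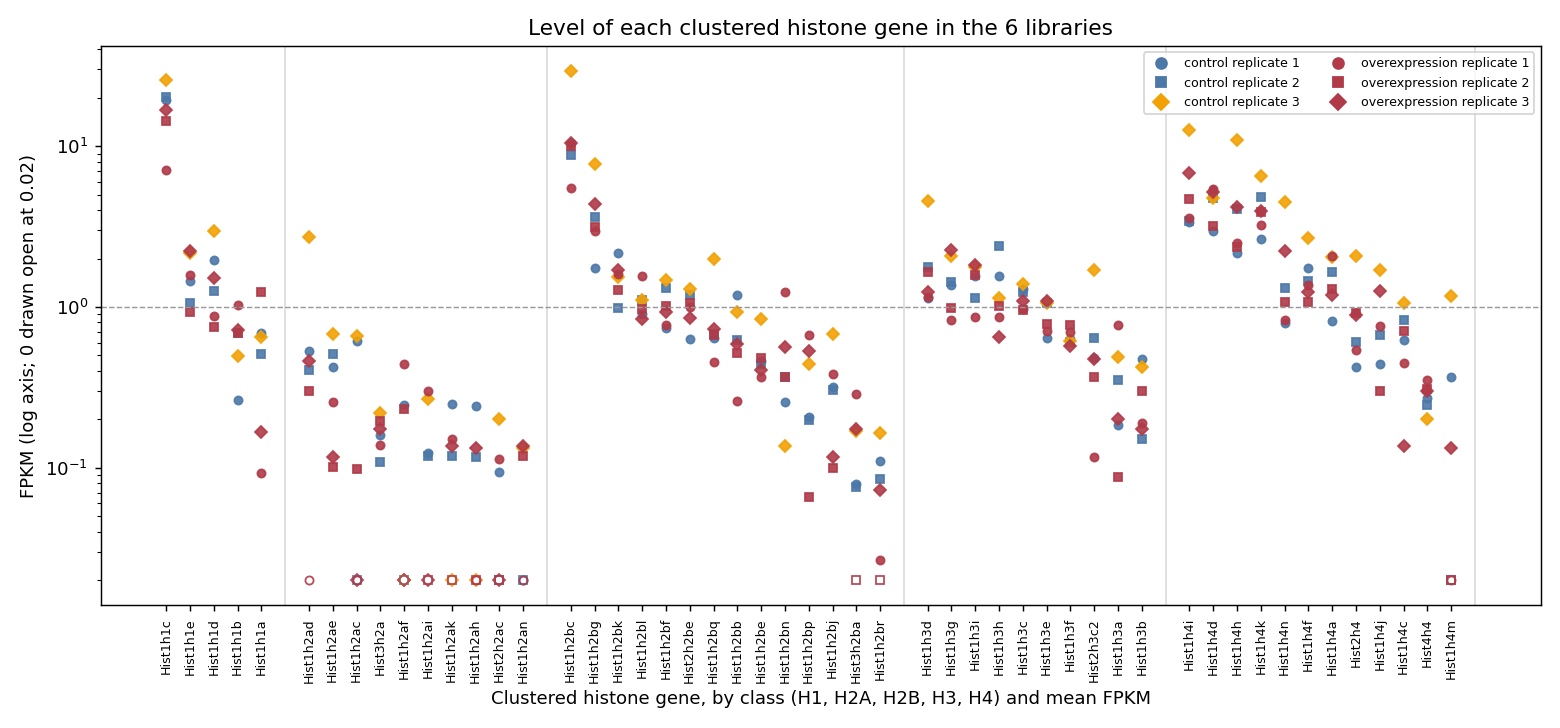
FPKM (log axis, 0 drawn as an open symbol at the bottom) of the 51 clustered histone genes in each library, ordered by class and by mean level; orange diamonds are control replicate 3, blue symbols the other controls and red symbols overexpression, and the dashed line is 1 FPKM. Hist1h1c and Hist1h2bc reach above 10 FPKM in libraries of both groups, and Hist1h4i and Hist1h4h do so in control replicate 3 only. Most H2A genes lie below 1 FPKM, and control replicate 3 is the highest library in 27 of the 51 genes.

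No clustered histone gene passed the test for a change with F-CircAE overexpression. The test was limma on log2(FPKM + 1) over the 12222 genes with more than 1 FPKM in at least 3 libraries, and 22 of the 51 members entered it: 3 of H1, 0 of H2A, 6 of H2B, 6 of H3 and 7 of H4. At a Benjamini-Hochberg adjusted p of 0.05 the count was 0 of 22 members, beside 0 of all 12222 genes (0% called), and the smallest adjusted p of a member was 0.842. Limma-voom on the recovered reads also called 0 members. At an unadjusted p below 0.05 stood 4 members, Hist1h3h, Hist1h1c, Hist1h1d and Hist1h4f, all with lower estimates in the overexpression libraries, beside 632 of all tested genes (5.17%). Estimates were below 0 for 17 of the 22, beside 46.8% of all tested genes, and the median log2 fold change was -0.19 beside 0.008 over all tested genes. Without control replicate 3 the estimates were below 0 for 10 of the 22, beside 47.6% of all tested genes, with medians of 0.01 and 0.009. The H1 median was then -0.36 in place of -0.56, that of H2B 0.03 in place of -0.07, that of H3 -0.06 in place of -0.20 and that of H4 0.18 in place of -0.22. Without control replicate 1 the medians were -0.56 for H1, -0.26 for H2B, -0.24 for H3 and -0.43 for H4. Without control replicate 2 they were -0.76, -0.13, -0.24 and -0.39 in the same order. A filter on level can favour genes that are high in a single group, although every tested member also exceeded 1 FPKM in an overexpression library. All 51 members were therefore also counted without a filter. Their overexpression mean was below the control mean in 37 of 51, beside 50.3% of all listed genes. Against control replicates 1 and 2 alone it was below in 29 of 51, beside 49.5%. Control replicate 3 was singled out because it was high in these genes. Leaving it out therefore lowers their control mean by construction, and the smaller imbalance is no independent result.

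**Figure D2:**
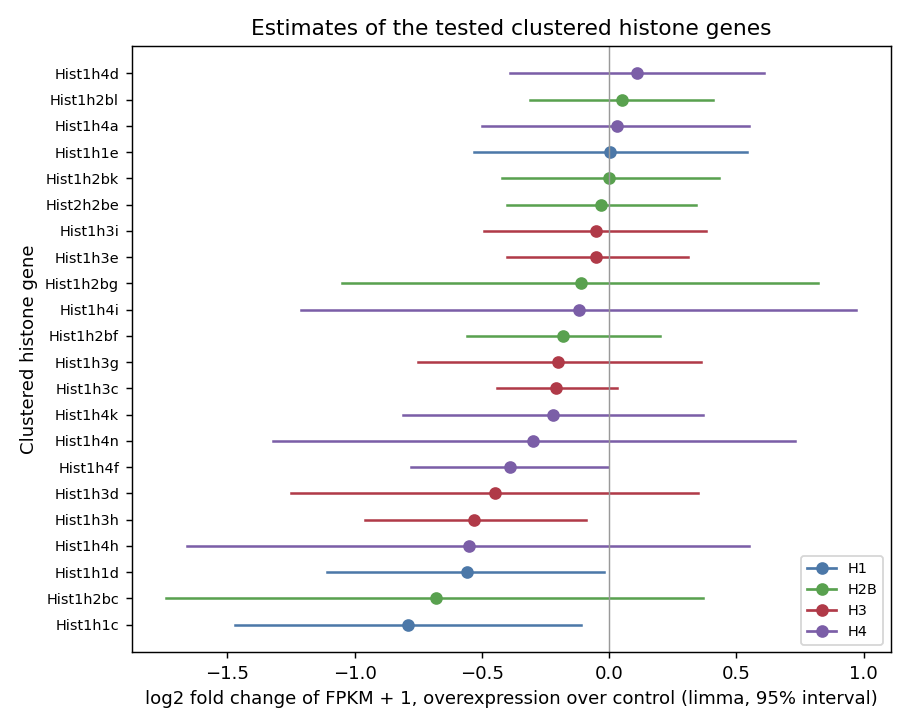
Log2 fold change of FPKM + 1 (overexpression over control) with its 95% limma interval for the 22 tested clustered histone genes, coloured by class. The estimates run from -0.79 for Hist1h1c to 0.11 for Hist1h4d, and the intervals of 4 genes lie below 0 before adjustment.

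The H1 genes encode the linker histones, and Hist1h1c (H1.2), at 80% of the class sum, was the most abundant clustered histone gene. Hist1h1c (ENSMUSG00000036181, chromosome 13, plus strand) stood at 19.3, 20.3 and 25.7 FPKM in the controls, against 7.15, 14.3 and 16.8 FPKM under overexpression, from 189 to 769 reads per library. All 3 controls lay above all 3 overexpression libraries, and overexpression replicate 1 was the lowest by far. The control mean of 21.8 ± 3.48 FPKM was 1.71 times the overexpression mean of 12.8 ± 5.01 (SD, n = 3). Limma estimated a log2 fold change of -0.79 (SE 0.29, 95% interval -1.47 to -0.11), which adjustment over all genes did not pass (adjusted p = 0.842). Without overexpression replicate 1 the estimate was -0.45, and without that library and control replicate 3 together -0.33. Its annotated transcript shares 3.27% of its 125-base windows with other genes, so its reads can mostly be placed. Hist1h1d (H1.3) held 1.97, 1.26 and 2.95 FPKM in control and 0.873, 0.75 and 1.51 FPKM with overexpression, where overexpression replicate 3 lay above control replicate 2 (log2 fold change -0.56, SE 0.23, limma adjusted p = 0.842, and -0.36 without control replicate 3). Hist1h1e (H1.4) stood at 1.44, 1.06 and 2.16 FPKM and at 1.58, 0.932 and 2.22 FPKM, ranges that nearly coincide (means 1.56 ± 0.56 and 1.58 ± 0.643, SD, n = 3). Hist1h1a and Hist1h1b lay below the filter, at means of 0.556 and 0.648 FPKM. The summed H1 level was 23.7, 23.8 and 32 FPKM in control and 10.7, 17.9 and 21.4 FPKM with overexpression. For this sum the groups did not overlap, and without Hist1h1c they did, at 4.36, 3.53 and 6.26 against 3.58, 3.6 and 4.62 FPKM.

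The H2A genes formed the lowest class, with 143 reads in all libraries together and no member above the filter. Their summed level was 2.68, 1.38 and 4.87 FPKM in control and 1.4, 1.05 and 1.16 FPKM with overexpression, and control replicate 2 lay just below overexpression replicate 1. Hist1h2ad, the highest, had 5, 4 and 24 reads in the controls, against 0, 3 and 4 with overexpression. Hist1h2ae had 4, 5 and 6 reads in control and 2, 1 and 1 with overexpression, and Hist1h2ac had 6, 0 and 6 against 0, 1 and 0. These differences were not tested, because the genes lay below the filter, and all but 1 of these values rest on 6 reads or fewer. Exons of all 10 H2A genes overlap an annotated microRNA gene on the other strand by 138 to 144 bases, and no member of another class has such an overlap. Whether reads were counted by strand is not given in the sources used here, and the part of this overlap in the low H2A values was not tested.

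In each of 8 head-to-head pairs of an H2A and an H2B member, whose starts lie 176 to 302 bases apart, the H2B gene had the higher mean over the 6 libraries, and in 6 of the 8 pairs it was higher in every library. The median level of the pairs was 0.122 FPKM on the H2A side and 1.06 FPKM on the H2B side. The share of windows in common with other genes differed between the sides. It was larger in Hist1h2ad, Hist1h2ah, Hist1h2ai, Hist1h2an and Hist2h2ac than in their H2B partners, as at 81.8% in Hist1h2an beside 25.9% in Hist1h2bp. It was smaller in Hist1h2ac, Hist1h2ae and Hist1h2ak, as at 6.62% in Hist1h2ac beside 21.8% in Hist1h2bc. The part of these shares and of the microRNA overlaps in the H2A and H2B levels was not tested. Hist1h2bc and Hist1h2ac, which face each other across the stretch printed above, had mean levels of 12.4 and 0.229 FPKM, from 1078 and 13 reads. Hist1h2bg and Hist1h2ae had 3.94 and 0.348 FPKM. Hist1h2bf and Hist1h2ad were closest, at 1.04 and 0.734 FPKM, and in control the H2A gene had the higher mean (1.21 against 1.18 FPKM), its level in control replicate 3 being 2.71 FPKM beside 1.47 FPKM for Hist1h2bf.

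H2B genes were led by Hist1h2bc, which made up 50.8% of the class sum. Hist1h2bc (ENSMUSG00000018102, chromosome 13, plus strand) stood at 10.4, 8.84 and 29.2 FPKM in the controls, against 5.46, 9.98 and 10.5 FPKM under overexpression. Control replicate 3 was far above every other library, and the remaining 5 overlapped. The control mean of 16.1 ± 11.3 FPKM (SD, n = 3) therefore carries an SD near its own size, beside 8.66 ± 2.79 with overexpression, and the log2 fold change of -0.68 had a standard error of 0.44 (limma adjusted p = 0.843). The estimate was -0.18 without control replicate 3, -0.42 without overexpression replicate 1 and 0.09 without both. Hist1h2bg stood at 1.74, 3.63 and 7.77 FPKM in control and 2.97, 3.12 and 4.38 FPKM with overexpression, again with control replicate 3 highest (log2 fold change -0.11, SE 0.39, limma adjusted p = 0.961, and 0.32 without that library). Hist1h2bk, at 2.16, 0.984 and 1.54 FPKM in control, did not follow that library, and its overexpression values of 1.61, 1.27 and 1.69 FPKM lay inside the control range. Hist1h2bf, with the second smallest p of the class, had 0.742, 1.32 and 1.47 FPKM in control and 0.769, 1.01 and 0.929 FPKM with overexpression. The summed H2B level was 19.9, 19.8 and 47.7 FPKM in control and 17, 19.6 and 22.4 FPKM with overexpression. The overexpression mean was 0.992 times that of control replicates 1 and 2.

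H3 genes had no dominant member, the highest, Hist1h3d, taking 19% of the class sum. Hist1h3d held 1.13, 1.76 and 4.57 FPKM in control and 1.16, 1.66 and 1.24 FPKM with overexpression, and control replicate 3 alone stood out (log2 fold change -0.45, SE 0.34, limma adjusted p = 0.845). Without that library the estimate was -0.05, and without control replicate 1 it was -0.74. Hist1h3h had the smallest p of all members, with 1.55, 2.39 and 1.14 FPKM in control and 0.862, 1.02 and 0.651 FPKM with overexpression. Here control replicate 3 was the lowest control, and the groups did not overlap. The difference rests on 13, 21 and 9 reads against 6, 9 and 5, and the log2 fold change of -0.53 (SE 0.19) missed the threshold (limma adjusted p = 0.842). With array weights, which let limma weigh libraries by their spread, it passed (log2 fold change -0.58, limma adjusted p = 0.0331), in a fit that called 18.3% of all tested genes. With control replicates 1 and 2 averaged as well, it did not (log2 fold change -0.36, limma adjusted p = 0.913), and without control replicate 2 the equal-weight estimate was -0.35. Hist1h3h shares 91.3% of its 125-base windows with other genes, so its reads cannot be assigned to it with certainty. Hist1h3c also separated, at 1.3, 1.24 and 1.39 FPKM against 0.966, 0.95 and 1.09 FPKM (log2 fold change -0.21, SE 0.1, limma adjusted p = 0.842). Hist1h3g, at 1.37, 1.43 and 2.08 against 0.83, 0.98 and 2.26 FPKM, and Hist1h3i, at 1.55, 1.14 and 1.78 against 0.862, 1.58 and 1.82 FPKM, overlapped between groups. The summed H3 level was 9.31, 10.8 and 15.2 FPKM in control and 7.16, 8.49 and 9.57 FPKM with overexpression, a ratio of 1.4 of the means, and overexpression replicate 3 lay above control replicate 1.

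H4 genes encode one and the same protein from many loci, and several stood near the top of the clustered genes. Hist1h4i (ENSMUSG00000060639, chromosome 13, minus strand) held 3.36, 3.41 and 12.6 FPKM in control and 3.57, 4.67 and 6.85 FPKM with overexpression, so that control replicate 3 was highest and control replicates 1 and 2 lowest. Its log2 fold change was -0.12 (SE 0.46, limma adjusted p = 0.965), and 0.42 without control replicate 3. Hist1h4h held 2.17, 4.06 and 11 FPKM in control and 2.5, 2.36 and 4.19 FPKM with overexpression (log2 fold change -0.55, SE 0.46, limma adjusted p = 0.85). Its estimate was -0.03 without control replicate 3 and -0.99 without control replicate 1. Hist1h4d was level across libraries in comparison, at 2.98, 4.77 and 4.78 FPKM in control and 5.41, 3.19 and 5.18 FPKM with overexpression; its transcript shares no 125-base window with another gene. Hist1h4f separated, with 1.75, 1.44 and 2.67 FPKM in control and 1.36, 1.07 and 1.23 FPKM with overexpression (log2 fold change -0.39, SE 0.16, limma adjusted p = 0.842, and -0.22 without control replicate 3), from 9 reads in each overexpression library. The summed H4 level was 16.7, 23.8 and 50.4 FPKM in control and 21.1, 19.8 and 27.5 FPKM with overexpression. Control replicate 1 was the lowest library and control replicate 3 the highest, so the controls spanned all overexpression libraries.

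**Figure D3:**
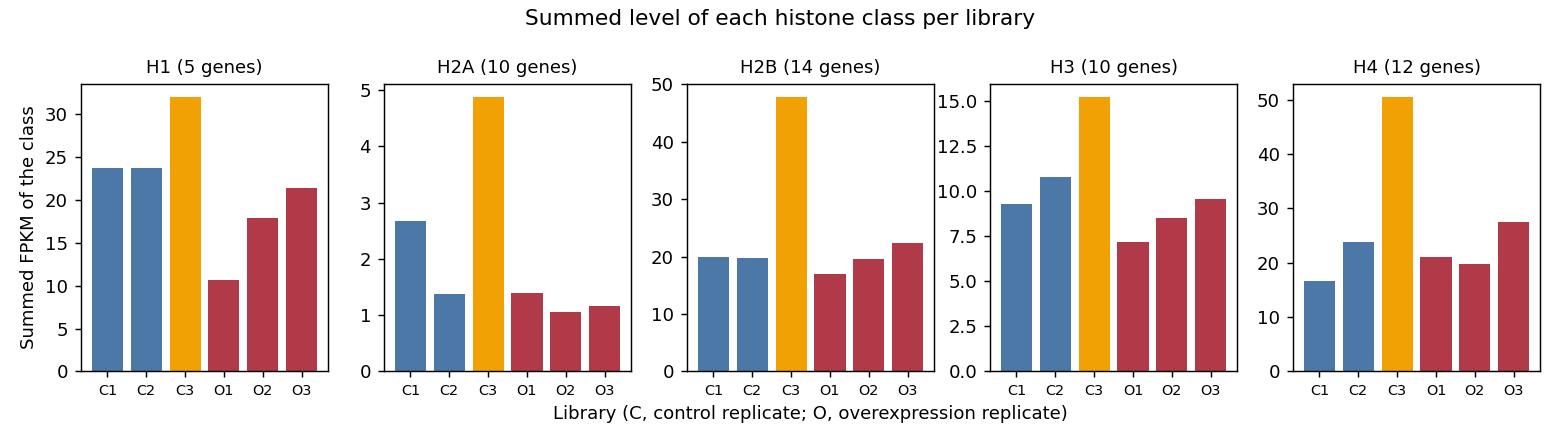
Summed FPKM of the listed genes of each histone class in control replicates 1 to 3 (C1 to C3, with C3 in orange) and overexpression replicates 1 to 3 (O1 to O3, red); each panel has its own axis from 0. Control replicate 3 is highest in all 5 classes, and H1 is the 1 class whose 3 overexpression bars all lie below the 3 control bars.

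Over all members, groups did not overlap in 8 of 51 with overexpression lower, beside 5.05% of all listed genes, and in 1 of 51, Hist4h4, with overexpression higher, beside 4.89%. Among the 22 tested members the count was 4 with overexpression lower, namely Hist1h1c, Hist1h3c, Hist1h3h and Hist1h4f, beside 4.69% of tested genes, and 0 with overexpression higher, beside 6.81%. The 4 others with overexpression lower, Hist1h2ae, Hist1h2bb, Hist1h2br and Hist2h3c2, lay below the filter. Names outside the rule for named genes are given here because the counts are small, and were chosen after their values were seen.

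Control replicate 3 set the spread among the controls. Control replicate 3 exceeded the mean of control replicates 1 and 2 by 1.35 times in summed H1, 2.4 times in H2A, 2.4 times in H2B, 1.52 times in H3 and 2.49 times in H4, whereas control and overexpression means differed by 1.59, 2.47, 1.48, 1.4 and 1.33 times. H2A rests on few reads. Without control replicate 3 the ratios of control to overexpression were 1.42, 1.69, 1.01, 1.19 and 0.887. Control replicate 3 was the highest of the 6 libraries in 27 of 51 members, beside 18.2% of all listed genes. Among tested genes it exceeded every other library by more than 1.5 times in 7 of 22 members, beside 0.507% of all, and both other controls by that much in 8 of 22, beside 2.62%. The median SD of the 3 controls on the log2(FPKM + 1) scale was 0.32 for the tested members and 0.093 for all tested genes. All tested genes were not matched to the members for level or reads. The 51 members held a median of only 65 reads over the 6 libraries. The part of counting error in these gaps was not tested.

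The excess in control replicate 3 was uneven over members. Of 35 members with at least 20 control reads, 18 were more than 1.5 times above the mean of the other controls, beside 5.86% of all genes with that many reads. The 95% counting interval of the ratio (exact binomial, counting error only) lay above 1 in 17 of the 35 and below 1 in 0. Hist1h2ad had a ratio of 5.82 (2.61 to 14.2), Hist1h4n 4.25 (2.38 to 7.83), Hist2h4 4.06 (2.65 to 6.3), Hist1h4i 3.73 (2.91 to 4.81), Hist1h4h 3.52 (2.54 to 4.92) and Hist1h2bc 3.03 (2.61 to 3.53). Other members were near 1, such as Hist1h2bk at 0.986 (0.485 to 1.91), Hist1h3f at 0.993 (0.42 to 2.18) and Hist1h3c at 1.09 (0.515 to 2.2). Hist1h1c, with the narrowest interval, stood at 1.3 (1.19 to 1.42). These genes were chosen for the size of the ratio after it was seen, Hist1h1c, Hist1h2bk, Hist1h2bc, Hist1h2ad, Hist1h4h, Hist1h4i and Hist1h3c being named by the rule as well.

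**Figure D4:**
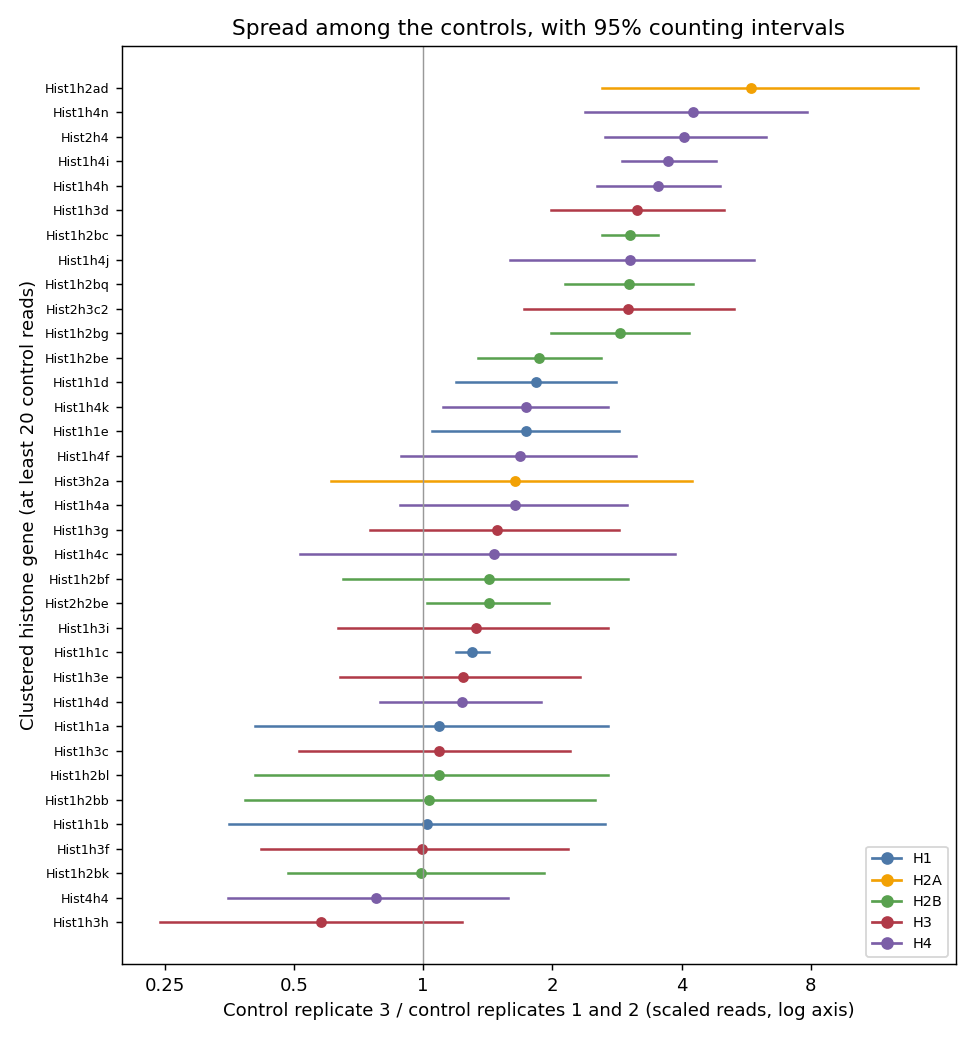
Ratio of control replicate 3 to control replicates 1 and 2 in scaled reads (log axis), with 95% exact binomial counting intervals, for the 35 clustered histone genes with at least 20 control reads, coloured by class. Ratios run from 0.578 for Hist1h3h to 5.82 for Hist1h2ad, and 17 intervals lie wholly above 1.

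Both groups of genes on chromosome 13 took part. With at least 20 control reads, 5 of 10 members of the first group (from 21715763) and 10 of 20 of the second (from 23531050) were above 1.5 times, with median ratios of 1.54 and 1.57, as were 3 of 5 on chromosomes 3, 6 and 11. By gene model, 11 of 17 members whose transcript runs more than 100 bases past the stem-loop were above 1.5 times (median ratio 1.73), 4 of 9 of those that end within 100 bases (1.49) and 3 of 9 with no match (1.33). A poly(A) signal, AATAAA or ATTAAA in the last 50 bases of the longest transcript, was present in 7 of the 18 members above 1.5 times and in 3 of the 17 others. Median levels were 0.673 FPKM in the 14 members with it and 0.734 FPKM in the 37 without. These are descriptions of few genes, and the gene lengths behind the deposited values differ from these models in 18 members.

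Other measures of the libraries were set beside the histone values. The 36 tested genes of S phase, such as Mcm3 and Pcna, had mean centred log2 levels of -0.08, -0.07 and 0.01 in the controls, against 0.14, 0.05 and -0.05 with overexpression. Overexpression replicate 1 thus had the highest S-phase level and the lowest summed clustered histone level of the 6 libraries. In this list 0 of 36 genes passed the test and 33 had estimates above 0 (53.2% of all tested genes), with Pola1, a subunit of DNA polymerase alpha, at 7.29 ± 0.157 and 8.18 ± 0.109 FPKM (SD, n = 3; limma adjusted p = 0.842). Small RNAs without a poly(A) tail, 14 listed genes such as Rn7sk and Rpph1, summed to 161, 156 and 184 FPKM in control and 214, 139 and 189 FPKM with overexpression, and 0 of 9 tested passed. In both measures control replicate 3 was the highest of the controls, but not the highest of the 6 libraries. Of these, Terc, the RNA component of telomerase, had the smallest p, with 1.85, 1.55 and 2.22 FPKM in control and 0.977, 0.439 and 0.506 FPKM under overexpression (limma adjusted p = 0.771). The part of cell cycle phase and of RNA selection in the histone values was not tested.

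None of the tested genes that transcribe, process and handle histones passed the test. Over 4 lists of the supply pathway, 0 of 97 tested genes passed, beside 0% of all. Estimates were above 0 for 66 and below for 31, beside 53.2% above 0 of all tested genes. The median log2 fold change was 0.06, beside 0.008 over all tested genes. At an unadjusted p below 0.05 there were 4 of 97, beside 5.17%. For transcription and 3' processing, 35 of 37 listed genes were tested, 25 with estimates above 0. Slbp, which binds the stem-loop, held 11.8, 12.2 and 10.6 FPKM in control and 11.1, 11.6 and 10.5 FPKM with overexpression, ranges that overlap. Npat, the coactivator of clustered histone genes under cyclin E and Cdk2, had 8.8 ± 0.211 and 8.63 ± 0.368 FPKM, and Hinfp, which binds H4 promoters, 7.18 ± 0.676 and 7.4 ± 0.241 (SD, n = 3). Casp8ap2 (FLASH), a scaffold of the cleavage machinery, had 6.25, 5.89 and 6.05 FPKM in control and 6.44, 6.93 and 6.37 FPKM with overexpression, without overlap (log2 fold change 0.1, SE 0.06, limma adjusted p = 0.843). The U7 proteins Lsm10 and Lsm11 had 12.3 ± 1.71 and 11.8 ± 1.08 FPKM, and 6.37 ± 0.111 and 6.59 ± 0.309 FPKM (SD, n = 3). Zfp473, a zinc finger protein of the same machinery, was below the filter at 0.115 and 0.151 FPKM. Nfat5, better known as a factor of the osmotic stress response, had the smallest p in the list, at 41.3 ± 3.79 and 33.8 ± 3.43 FPKM (SD, n = 3; limma adjusted p = 0.842).

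Among the 22 decay genes, 15 had estimates above 0, beside 53.2% of all tested genes, and 0 passed. Lsm5, of the ring that binds mRNA ends before decay, had 60.5 ± 2.93 FPKM in control and 72.5 ± 6.49 FPKM with overexpression (SD, n = 3), with all overexpression libraries above all controls (log2 fold change 0.26, SE 0.08, limma adjusted p = 0.842). Of 10 tested replacement variants 5 had estimates above 0 and 5 below, and 0 passed. H3f3b held 333, 334 and 345 FPKM in control and 305, 327 and 305 FPKM with overexpression, without overlap (log2 fold change -0.11, SE 0.06, limma adjusted p = 0.842). H2afz, the essential H2A.Z, had 295 ± 13.9 and 319 ± 25.5 FPKM, H2afx, the variant phosphorylated at DNA breaks, 13.7 ± 2.33 and 13.1 ± 1.3, and H2afy (macroH2A) 13.9 ± 0.689 and 14.9 ± 1.14 (SD, n = 3). H3f3a had 21.8 ± 0.53 and 20.1 ± 2.22 FPKM, H1f0 435 ± 57.7 and 429 ± 15.3, and H2afy2, with the smallest p of the list, 13.8 ± 1.08 and 15.5 ± 1.16 (SD, n = 3). In H1f0 control replicate 3 was the lowest library, at 368 FPKM beside 466 and 470 in the other controls, the opposite of its place in the clustered H1 sum. Of 30 chaperone and assembly genes 21 had estimates above 0, 0 passed, and Hat1, which acetylates new H4, had the smallest p at 37 ± 1.8 and 42.7 ± 4.03 FPKM (SD, n = 3; limma adjusted p = 0.842).

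Near-identical copies limit what can be said of single genes. Of the 51 members 45 share at least 1 window of 125 bases, the shorter read length in the labels, with another annotated transcript, and 15 share 50% or more. Among the latter are Hist1h2bq at 93.6%, Hist1h3h at 91.3%, Hist1h2ah at 87.9% and Hist1h4n at 79.1%. The median level was 0.627 FPKM for these 15 and 0.87 FPKM for the 36 others. Hist1h4d, Hist2h4, Hist2h2be, Hist3h2ba, Hist1h1a and Hist1h1b share no window. Exons of Hist1h1e and Hist1h2be overlap each other on the same strand by 496 bases, and those of Hist3h2a overlap Trim17 by 708 bases. The member just below the filter with the highest mean had 0.908 FPKM and the lowest just above it 0.89 FPKM.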

How the data were processed

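Gene-level FPKM values, deposited by the authors for each of the 6 libraries, are reads per gene length and library size; the genome build is mm10 per the submitters' processing notes, and the sources used here give no aligner, counter, annotation or strand setting. Ensembl IDs were named with GENCODE M21 (24816 of 24938 matched). Reads were recovered from the FPKM steps, whole within 0.01 reads in all libraries. This held at the annotated exon length for 79.5% of genes and at a searched length for 5106. The search took the shortest length that gave whole reads, so the reads of those genes are the fewest that fit. Recovery was tested on simulated data for genes at the annotated length only, and the length search was not tested. Groups were compared with limma 3.58.1 (R 4.3.3, trend and robust) on log2(FPKM + 1), group as the only term, for genes above 1 FPKM in at least 3 libraries, with Benjamini-Hochberg adjustment at 0.05. This pseudocount understates changes of low genes. Named were the 3 highest and the 2 smallest-p members of each class, fixed pathway genes and the smallest p of each list. Members and lists were chosen with earlier results of these data known. The alternatives were other pseudocounts, filters, scalings and weights, limma-voom, a replicate block and left-out libraries. With 3 against 3, an exact permutation test cannot go below 0.1.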

Additional observations from a re-analysis of the deposited data

How the results depend on the processing

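Of 596 estimates of named genes under the alternatives, 524 kept their direction and side of the threshold, 63 reversed and 9 passed the threshold, all 9 with array weights. Clustered histone genes called were 0 in every alternative except array weights, with 1 (Hist1h3h), and pathway genes called were 28 of 97 with array weights, a fit that called 18.3% of all tested genes; array weights with control replicates 1 and 2 averaged, chosen after seeing the data, gave 0 of both, beside 0% of all tested genes. The H1 median was -0.22 with a pseudocount of 5 and -0.19 without a filter. The H2B median was -0.68 with a filter at 5 FPKM and -0.34 by limma-voom, and the H3 median -0.39 by limma-voom and 0.04 without control 3 and overexpression 1 together (chosen after seeing the data). Summed H2B, overexpression over control, ran from 0.583 without control replicate 1 to 0.992 without control replicate 3. The cause was not tested.

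Reversed log2 fold changes with array weights were Npat 0.01, Hist1h4d -0.14, H2afx 0.08, Hist1h1e -0.13, Hinfp -0.009, Hist1h3i 0.14, Hist1h2bg 0.15, Hist1h3d 0.02, Hist1h4i 0.33 and Hist1h2bk -0.08. Without control 3 and overexpression 1 together they were Hist1h3i 0.21, Hist1h3g 0.08, Hist1h2bk -0.02, Hist1h4h 0.06, Hist1h3d 0.01, Hist1h2bg 0.40, Hist1h2bc 0.09, H2afx 0.15 and Hist1h4i 0.60. With control replicates 1 and 2 averaged they were Hist1h2bk -0.02, H1f0 0.05 and Hist1h1e -0.08, and with array weights added Hist1h4d -0.24, Npat 0.02, Lsm11 -0.009, Slbp 0.02, H1f0 0.07, Hist1h2bk -0.13, Hist1h1e -0.35 and Hist1h3i 0.005. At an equal FPKM sum they were Hist1h2bk -0.04, Lsm11 -0.01, Hinfp -0.02 and Hist1h1e -0.03. Hist1h1e was -0.004 with a pseudocount of 0.1, -0.01 at the upper quartile and -0.05 by limma-voom, and Hist1h2bk -0.005 with a pseudocount of 5, -0.01 at the upper quartile and -0.01 by limma-voom. Leaving out 1 library at a time gave H1f0 -0.13 to 0.05, H2afx -0.13 to 0.08, Hinfp -0.007 to 0.11, Hist1h1e -0.17 to 0.20, Hist1h2bg -0.52 to 0.32, Hist1h2bk -0.17 to 0.17, Hist1h3i -0.17 to 0.13, Hist1h4d -0.07 to 0.30, Hist1h4i -0.40 to 0.42, Lsm10 -0.11 to 0.06 and Npat -0.05 to 0.005. Over all tested genes, deviations from the group mean were nearly uncorrelated between libraries of the same replicate number (correlations -0.102, 0.0833 and 0.00253). The summed clustered histone level rose with replicate number in both groups, at 72.2, 79.5 and 150 FPKM in control and 57.4, 66.8 and 82.1 FPKM with overexpression. By class, this order held in both groups for H1 and H3 only. H2A, H2B and H4 departed from it, as H4 did at 21.1, 19.8 and 27.5 FPKM with overexpression. With the replicate block the SE of Hist1h1c was 0.18 in place of 0.29, and 0 histone genes were called. Whether libraries of the same number belong together is not known.

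Depth limits single members: 7 of 51 had fewer than 10 reads in all.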
